A study of Mus musculus with 12 samples.

Results

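The genes described are 9 regulators of cholesterol supply: Srebf1, Srebf2, Scap, Insig1, Insig2, Stard4, Npc1, Npc2 and Abca1. They were chosen by symbol, and each of the 9 matched 1 row of the 24411 genes in every table. The data are polyA RNA-seq libraries of mouse blastocysts, in a study of Nampt, the gene of the NAD salvage enzyme also called visfatin. The 12 libraries fall into 6 groups of 2, and each library holds a pool of 10 blastocysts at 96 hours after insemination (hpi).

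All 6 groups were wild-type embryos of the ICR strain (genotype label ICR_WT), made by in vitro fertilization of oocytes from superovulated females and grown in the medium KSOM. Each group is marked ND or HFD, which the labels do not spell out. The series title speaks of mice of normal weight and obese mice. ND_C and HFD_C are the controls, ND_siNT and HFD_siNT received a non-targeting siRNA, and ND_siNampt and HFD_siNampt received an siRNA against Nampt. The siRNAs were electroporated into zygotes at 3 to 6 hpi. The sources used here do not say if C embryos went through electroporation. The 2 libraries of a group carry the batch labels 1 and 2, and p-values measure the spread between such pools, not between single embryos.

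Sterol regulatory element binding proteins, encoded by Srebf1 and Srebf2, are transcription factors held in the membrane of the endoplasmic reticulum. SCAP escorts them to the Golgi, where proteases free the active part, and INSIG proteins hold SCAP back while sterols are plentiful. The freed factors switch on the genes of cholesterol synthesis and uptake, and Insig1 and Srebf2 are themselves known targets of the pathway. NPC2 and NPC1 hand cholesterol out of the lysosome, STARD4 carries it through the cytosol, and ABCA1 exports it to lipid-poor apolipoprotein. Growing embryos need cholesterol for the membranes of dividing cells.

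Promoter sequence is shown for Insig1 and Srebf2, whose levels tracked those of the cholesterol synthesis genes, and for Insig2, the paralogue of Insig1, whose relation to them missed the threshold. RefSeq windows on GRCm38.p6 (the assembly of mm10) were available for 7 of the 9 genes, 12 windows in all. Each window runs from 250 bases before a transcript start to 50 bases from it on, and the 250 bases before the start are printed 5′ to 3′ on the gene's strand. Capitals mark an E-box (CACGTG), an NF-Y box (CCAAT, or ATTGG on the opposite strand) or the letters TCACCCCA. The 250 bases are chr5:28071162-28071411 on the plus strand for Insig1, chr15:82147019-82147268 on the plus strand for Srebf2 and chr1:121332590-121332839 on the minus strand for Insig2.
Insig1: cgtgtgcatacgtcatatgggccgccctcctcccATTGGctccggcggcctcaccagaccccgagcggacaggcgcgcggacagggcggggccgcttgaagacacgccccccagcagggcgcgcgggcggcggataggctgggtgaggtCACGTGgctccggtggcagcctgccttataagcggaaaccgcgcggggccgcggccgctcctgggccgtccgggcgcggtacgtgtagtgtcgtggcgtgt
Srebf2: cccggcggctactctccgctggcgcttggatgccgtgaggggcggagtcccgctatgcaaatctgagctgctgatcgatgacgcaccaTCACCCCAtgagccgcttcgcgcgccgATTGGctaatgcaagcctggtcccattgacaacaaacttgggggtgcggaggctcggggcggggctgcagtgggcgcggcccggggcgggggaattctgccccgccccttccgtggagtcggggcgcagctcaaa
Insig2: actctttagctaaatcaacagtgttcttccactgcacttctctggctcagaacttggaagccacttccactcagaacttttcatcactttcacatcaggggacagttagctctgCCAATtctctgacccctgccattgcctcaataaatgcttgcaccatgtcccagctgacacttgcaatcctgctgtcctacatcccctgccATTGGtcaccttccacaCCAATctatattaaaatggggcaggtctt
In the Insig1 window, the E-box began 101 bases before the start and the NF-Y box, on the opposite strand, 216 bases before it. In the Srebf2 window, an NF-Y box on the opposite strand began 135 bases before the start and TCACCCCA 162 bases before it. The Insig2 window printed here held 3 NF-Y boxes and no E-box. Its start lies inside the span of the gene, which ends at 121332662, so part of the printed stretch does too. The NF-Y boxes 46 and 29 bases before that start fall in this part. Which start these embryos use was not tested. Insig2 windows at other starts, chr1:121327975-121328274 and chr1:121327629-121327928, held no match to any motif searched. On both strands, the sterol element core TCACNCCAC matched none of the members' 12 windows and 1.242% of 32851 RefSeq mouse windows of the same length. The E-box matched 7.15% of those windows, CCAAT 37.4%, and TCACCCCA, a shorter form searched for after the windows had been seen, 1.556%. Among members not said to track the synthesis genes, Abca1 and Scap windows also held an E-box, and Npc2 and Srebf1 windows an NF-Y box. A match describes letters in a window, and a window without one says nothing of the factor.

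Each library held between 42473129 and 50503064 expected counts (RSEM's estimate of fragments per gene) and between 16473 and 17948 genes with a count, the most in HFD_siNampt replicate 1. Nampt itself stood at 15.28 and 10.22 TPM (RSEM's transcript level, scaled for transcript length and library size) in ND_siNT, against 12.45 and 8.83 in ND_siNampt. In HFD it stood at 14.65 and 13.76 TPM in siNT, against 11.57 and 11.09 in siNampt. The targeted gene was lower with siNampt in 4 of 4 comparisons within ND or HFD and within a batch, by a log2 fold change of -0.43 (SE 0.17, edgeR adjusted p = 0.396), which missed the threshold of 0.05. Nampt held 12.41 and 9.23 TPM in ND_C and 14.69 and 13.57 in HFD_C. Its log2 fold change was -0.21 (SE 0.17) for siNampt minus C and 0.22 (SE 0.17) for siNT minus C. In ND, siNampt minus C was only -0.009 and -0.019 log2 CPM in batches 1 and 2, against -0.41 and -0.38 in HFD. The word knockdown below names the siRNA contrast, not a shown fall of Nampt. Summed TPM of trophectoderm, inner cell mass and primitive endoderm markers was at least 2739.83, 60.95 and 51.02 in every library. The 6 cumulus cell markers summed to at most 0.5 TPM in any library, the 4 sperm markers to at most 3.35 (Tnp1 at 0 in all), and the 3 fibroblast markers to at most 1.09. In pools of whole embryos, fewer cells of a type and less RNA per cell cannot be told apart.

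All 9 genes were detected in all 12 libraries, and all 9 passed the filter on low counts. Npc2, the soluble lysosomal sterol carrier, was the most abundant at a mean of 75.3 ± 6.08 TPM (SD, n = 12), above 93.3% of all genes. The sensor genes Insig1 and Insig2 followed at 13.4 ± 3.37 and 10.3 ± 1.08 TPM. Stard4 at 6.49 ± 1.06 and Npc1 at 6.08 ± 1.13 TPM formed the middle. The regulators proper were scarce: Srebf2 had 1.96 ± 0.649 TPM, its escort Scap 1.60 ± 0.385 and Srebf1 1.27 ± 0.266. Abca1, the exporter, was lowest at 0.638 ± 0.180 TPM, above 56.7% of all genes.

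The order was strict at 4 of its 8 steps, with the more abundant gene higher in 12 of 12 libraries (Npc2 over Insig1, Insig2 over Stard4, Npc1 over Srebf2, Srebf1 over Abca1). Neighbours with overlapping levels were Stard4 and Npc1 (Stard4 higher in 8 of 12 libraries), Insig1 and Insig2 (10 of 12), Srebf2 and Scap (10 of 12) and Scap and Srebf1 (11 of 12). Npc2 stood at 9.81 to 17.9 times the TPM of Npc1, its membrane partner, depending on the library. Insig1 exceeded Insig2 in all but ND_siNT replicate 1 (ratio 0.885) and HFD_siNampt replicate 2 (ratio 0.871), and reached 2.00 times its level in HFD_siNampt replicate 1. Srebf2 was above Srebf1 in every library, by 1.10 to 2.36 times.

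**Figure D1:**
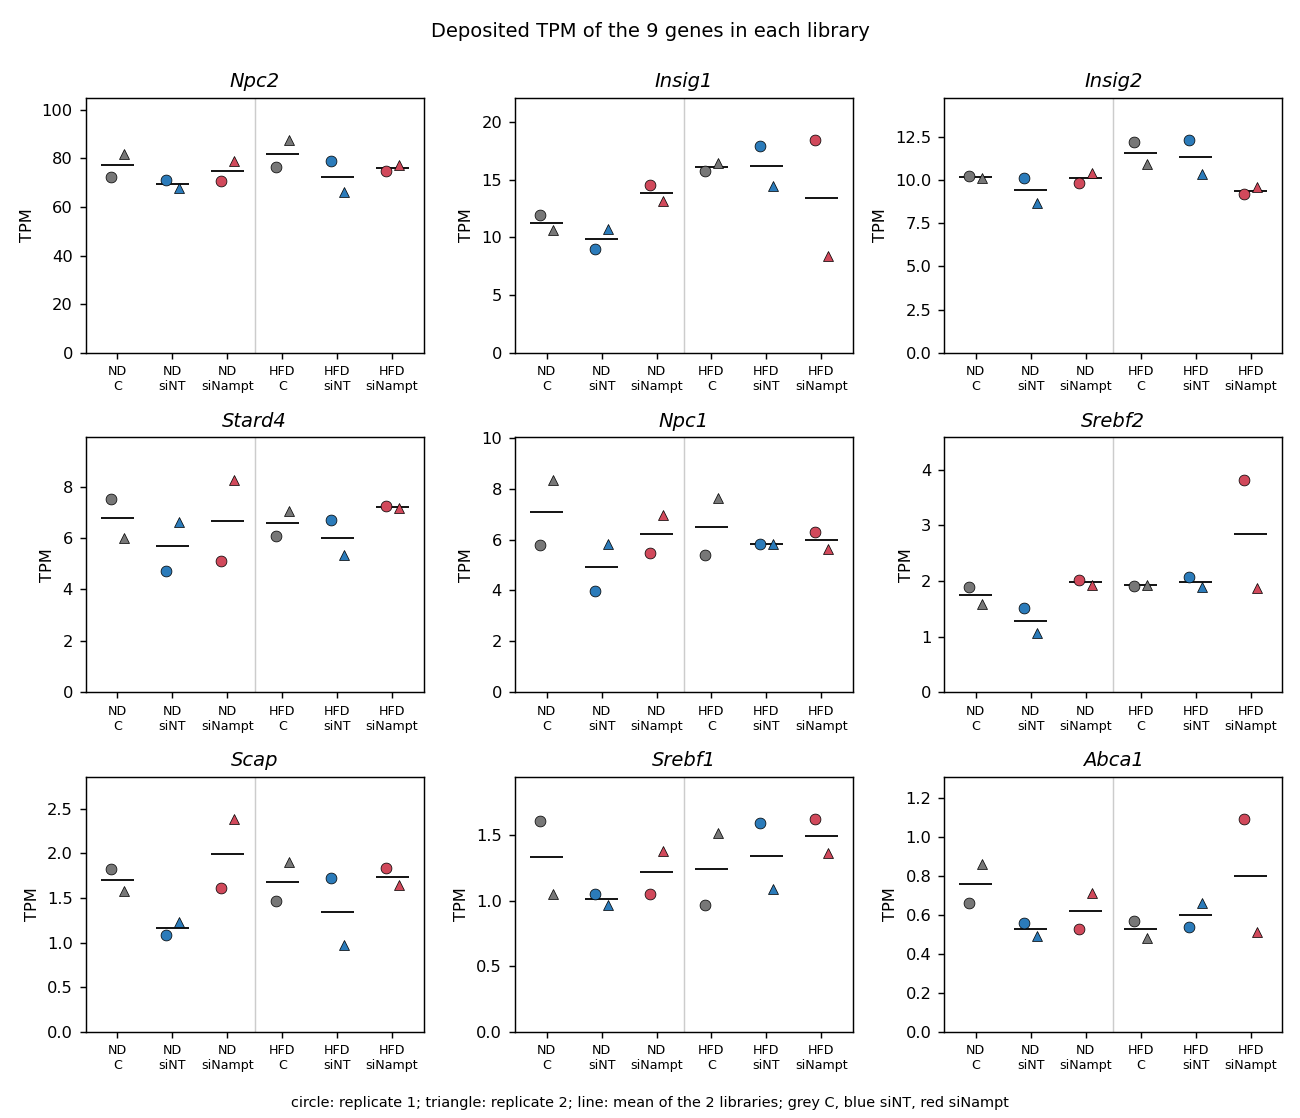
TPM of each of the 9 genes in the 12 libraries, 1 panel a gene, by ND or HFD and treatment; circles are replicate 1, triangles replicate 2 and lines the mean of the 2 libraries of a group. Npc2 is the highest and steadiest gene, while Srebf2 stands out in HFD_siNampt replicate 1 at 3.82 TPM and Insig1 is spread most between the 2 HFD_siNampt libraries (18.40 and 8.34 TPM).

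Spread between libraries differed from gene to gene. The highest library held 1.32 times the lowest for Npc2, 1.42 times for Insig2, 1.67 times for Srebf1, 1.75 times for Stard4 and 2.10 times for Npc1. For Insig1 that ratio was 2.21, for Abca1 2.27, for Scap 2.45 and for Srebf2 3.57. Much of the largest spread lay between the replicates of HFD_siNampt. There, replicate 1 exceeded replicate 2 by 1.27 log2 units for Insig1, 1.23 for Abca1 and 1.15 for Srebf2. Gaps of at least that size between the same libraries were found in 11.7%, 12.4% and 13.8% of all genes tested.

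The question of the siRNA arms is what lowering Nampt in the zygote does to the blastocyst. No member passed the test between siNampt and siNT over ND and HFD together (0 of 9, edgeR quasi-likelihood, adjusted p of 0.05), and percent called over all 14743 genes was 0%. At an unadjusted p of 0.05, 1 of the 9 members was counted (Scap) beside 1645 of all genes (11.2%). DESeq2 passed 0 members and counted 1 at that level, and limma on log2(TPM + 1) passed 0 and counted 2. The knockdown contrast was made of 4 against 4 libraries.

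Scap, the escort of the SREBPs, held 1.09 and 1.23 TPM in ND_siNT, 1.61 and 2.38 in ND_siNampt, 1.72 and 0.97 in HFD_siNT and 1.83 and 1.65 in HFD_siNampt. It was higher with siNampt in 4 of 4 comparisons within ND or HFD and batch, yet the ranges overlapped through HFD_siNT replicate 1. The share of all genes with 4 of 4 on 1 side was not counted, here or for Npc2 and Npc1 below. Such counts are therefore given as description only. The log2 fold change of Scap was 0.45 (SE 0.20), with an edgeR p of 0.0397 and an adjusted p of 0.431. The C libraries, at 1.82, 1.58, 1.46 and 1.90 TPM, lay near siNampt (log2 difference siNampt minus C 0.12, SE 0.20) and mostly above siNT (siNT minus C -0.33, SE 0.20, edgeR adjusted p = 0.984). These comparisons share libraries, so a low siNT arm enters both the first and the third.

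Srebf2, which encodes the main activator of cholesterol synthesis genes, held 1.51 and 1.07 TPM in ND_siNT against 2.02 and 1.93 in ND_siNampt. In HFD it held 2.08 and 1.89 TPM with siNT against 3.82 and 1.88 with siNampt. All but 1 of the HFD values sit close together, and HFD_siNampt replicate 1 stands apart. The log2 fold change of siNampt over siNT was 0.44 (SE 0.22, edgeR adjusted p = 0.483), and 0.16 without HFD_siNampt replicate 1. That library also had the most genes with a count, and the part of this in the Srebf2 value was not tested. In the C libraries Srebf2 held 1.90, 1.59, 1.91 and 1.93 TPM, giving 0.35 (SE 0.22, edgeR adjusted p = 0.999) for siNampt minus C, and 0.085 without HFD_siNampt replicate 1. Srebf1, the paralogue best known for fatty acid synthesis genes, ranged from 0.97 to 1.59 TPM in siNT, 1.05 to 1.62 in siNampt and 0.97 to 1.61 in C. Its log2 fold change with siNampt over siNT was 0.08 (SE 0.22).

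The INSIG genes differed in their values. Insig1, which holds SCAP back when sterols are plentiful, held 8.98 and 10.73 TPM in ND_siNT, 14.49 and 13.11 in ND_siNampt, 17.92 and 14.47 in HFD_siNT and 18.40 and 8.34 in HFD_siNampt. Both ND_siNampt libraries were above both ND_siNT libraries, whereas the HFD_siNampt pair enclosed the HFD_siNT pair. How many of all genes part in this way between pairs of libraries was not counted. The knockdown estimate was 0.31 (SE 0.31) in ND and -0.36 (SE 0.31) in HFD on the log2 scale. The test of the difference between HFD and ND gave -0.66 (SE 0.43, edgeR unadjusted p = 0.150, adjusted p = 1). Both values turned on the HFD_siNampt pair. Without its replicate 1 the HFD estimate was -1.13 and the difference -1.44, and without replicate 2 they were 0.15 and -0.16. Over ND and HFD the estimate was -0.01 (SE 0.22), and 0.25 without HFD_siNampt replicate 2.

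Insig2 held 10.15 and 8.68 TPM in ND_siNT, 9.83 and 10.43 in ND_siNampt, 12.31 and 10.35 in HFD_siNT and 9.21 and 9.58 in HFD_siNampt. Both HFD_siNampt libraries lay below both HFD_siNT and both HFD_C libraries (12.23 and 10.96), while in ND the arms were mixed. The share of all genes with such a pattern was likewise not counted. On the edgeR scale the estimate was -0.35 (SE 0.18, adjusted p = 0.9235) in HFD and -0.06 (SE 0.18) in ND. Over ND and HFD it was -0.20 (SE 0.13, edgeR adjusted p = 0.570).

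Among the genes that move cholesterol, Npc2 held 71.00, 67.97, 78.80 and 66.29 TPM in the siNT libraries and 70.61, 78.94, 74.81 and 77.19 in the siNampt libraries, with 72.45, 81.89, 76.37 and 87.50 in C. Mean TPM was 75.4 ± 3.61 with siNampt, 71.0 ± 5.54 with siNT and 79.6 ± 6.56 in C (SD, n = 4 each). The edgeR estimate of siNampt over siNT was -0.05 (SE 0.09), opposite in sign to the TPM means. The 2 scales have different centres. Over 9712 genes of mean TPM 1 or more, the median log2 ratio of mean TPM was 0.145 for siNampt over siNT and -0.119 for siNT over C, against medians of 0.025 and -0.014 over all genes in the edgeR fit. Differences are therefore read from the edgeR scale. Against C, Npc2 was lower with siNampt in 4 of 4 comparisons within ND or HFD and batch, by -0.11 (SE 0.09, edgeR adjusted p = 0.999).

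Npc1, the membrane protein that takes cholesterol from NPC2, held in siNT 3.97, 5.84, 5.82 and 5.81 TPM, beside 5.49, 6.97, 6.31 and 5.63 in siNampt and 5.79, 8.35, 5.40 and 7.63 in C. On the log2 CPM scale it was lower in siNT than in C in 4 of 4 comparisons within ND or HFD and batch, by -0.23 (SE 0.16, edgeR adjusted p = 0.984). In HFD batch 1 that gap was only -0.01, and the TPM values there went the other way (5.82 in siNT, 5.40 in C). Leaving out 1 library gave -0.31 to -0.11, the smallest without ND_siNT replicate 1. With siNampt over siNT the log2 fold change was 0.05 (SE 0.16). Npc1 counts were not whole in any of the 12 libraries, which RSEM gives where fragments are shared out among genes, while the other 8 members had whole counts. Stard4, the cytosolic carrier, ranged from 4.72 to 6.69 TPM in siNT, 5.10 to 8.27 in siNampt and 6.02 to 7.51 in C, with a log2 fold change of 0.11 (SE 0.17) for siNampt over siNT. Abca1 held 0.53, 0.71, 1.09 and 0.51 TPM with siNampt against 0.56, 0.49, 0.54 and 0.66 with siNT and 0.66, 0.86, 0.57 and 0.48 in C. Its high value is again HFD_siNampt replicate 1, and its estimate of 0.21 (SE 0.27) became -0.16 without that library.

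The other treatment contrasts gave no call either. For siNampt minus C, 0 of 9 members passed in edgeR, 0% of all genes did, and 0 members beside 560 genes (3.8%) were counted at an unadjusted p of 0.05. For siNT minus C the numbers were 0 of 9, 0% and 0 members beside 648 genes (4.4%). There 7 of the 9 members were lower in siNT, beside 52.2% of all genes. DESeq2 and limma passed 0 of the 9 members in both contrasts. No member had TPM ranges apart between siNampt and siNT, a pattern found in 6.15% of all genes. Ranges apart were likewise seen for 0 of 9 members between siNampt and C (2.12% of all genes) and between siNT and C (3.38%). These shares were taken on TPM, whose centre differs between arms as given above, so they are not shares of genes that respond. Summed TPM of the 6 trophectoderm markers ran from 3375.45 to 5155.72 in siNampt, 2739.83 to 3548.43 in siNT and 2992.61 to 3768.43 in C, and its part in these results was not tested.

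**Figure D2:**
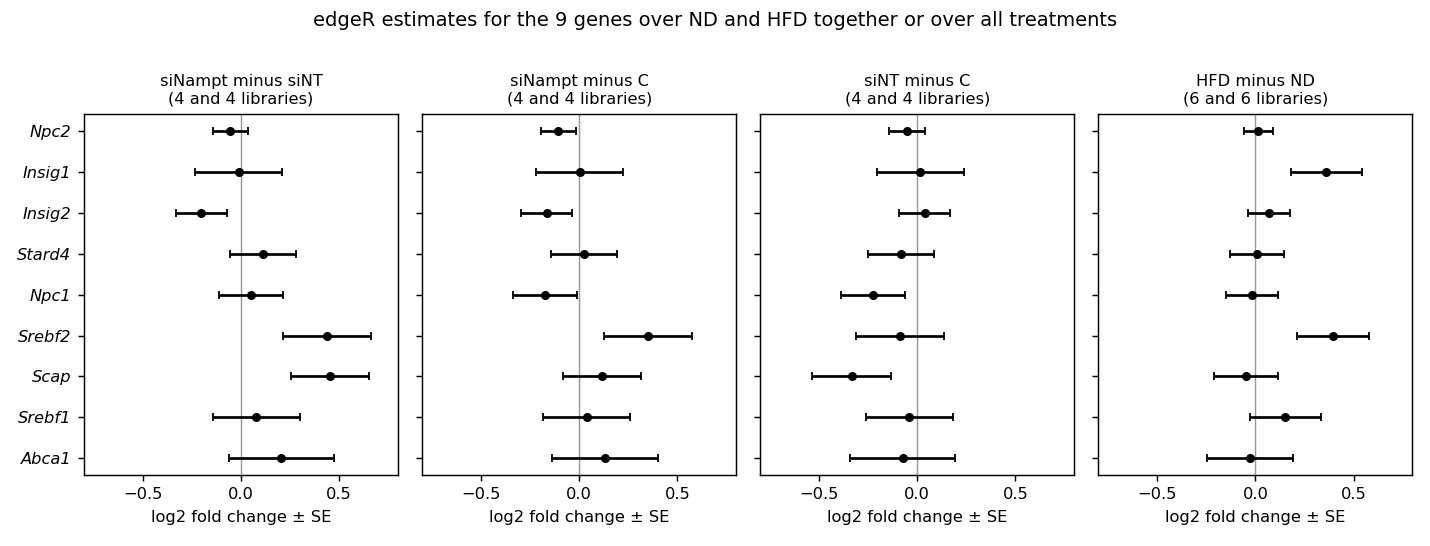
edgeR log2 fold changes of the 9 genes (points) with their standard errors (bars) for siNampt minus siNT, siNampt minus C, siNT minus C and HFD minus ND. Srebf2 lies to the right in the first and last panels (0.44 and 0.40), Scap in the first (0.45) and Insig1 in the last (0.36); none passed after adjustment.

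The second axis of the design is HFD against ND. Over all treatments, this contrast passed 0 of 9 members and 0% of all genes in edgeR. At an unadjusted p of 0.05 it counted 1 member (Srebf2) beside 474 genes (3.22%), DESeq2 counted 1 and limma 0. TPM ranges of HFD and ND did not part for any of the 9 members, against 0.109% of all genes. Insig1 and Srebf2, 2 genes that the SREBP pathway itself controls, had the largest estimates of the members. Stard4, also known as an SREBP target, had an estimate of 0.01 (SE 0.14).

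Insig1 held 11.96, 10.59, 8.98, 10.73, 14.49 and 13.11 TPM in the 6 ND libraries. In the 6 HFD libraries it held 15.75, 16.47, 17.92, 14.47, 18.40 and 8.34 TPM. The highest ND value, 14.49, was passed by 4 of the 6 HFD libraries; HFD_siNT replicate 2 lay just under it and HFD_siNampt replicate 2 was the lowest of all 12. HFD was higher in 5 of 6 comparisons within treatment and batch. The log2 difference was 0.36 (SE 0.18), with an edgeR p of 0.0661 and an adjusted p of 1.00. Leaving out HFD_siNampt replicate 2 gave 0.54 (edgeR adjusted p = 0.848), and leaving out HFD_siNampt replicate 1 gave 0.26. In batch 1 the mean difference was 0.53 and in batch 2 it was 0.11.

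Srebf2 ranged from 1.07 to 2.02 TPM in ND (median 1.75) and from 1.88 to 3.82 in HFD (median 1.92). HFD was higher in 5 of 6 comparisons within treatment and batch, and the ranges overlapped between 1.88 and 2.02 TPM. The log2 difference was 0.40 (SE 0.18), with an edgeR p of 0.0484 and an adjusted p of 1.00, and it was 0.21 without HFD_siNampt replicate 1. Within batch 1 the mean difference was 0.41 and within batch 2 it was 0.33. In the C libraries alone the difference was 0.55 (SE 0.31) for Insig1 and 0.18 (SE 0.34) for Srebf2, with 0 of 9 members and 0% of all genes called (414 genes at an unadjusted p of 0.05, none of them a member).

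The other 7 members had small estimates between HFD and ND: 0.15 (SE 0.18) for Srebf1, 0.07 (SE 0.11) for Insig2, 0.02 (SE 0.07) for Npc2, 0.01 (SE 0.14) for Stard4, -0.02 (SE 0.13) for Npc1, -0.03 (SE 0.22) for Abca1 and -0.05 (SE 0.16) for Scap. Npc2 was thus the gene with the smallest standard error. Hmgcs1, a known SREBP2 target and a synthase of the mevalonate route, ranged from 31.17 to 42.62 TPM in ND and from 27.57 to 60.15 TPM in HFD, a log2 difference of 0.20 (SE 0.17). Its lowest HFD library was HFD_siNampt replicate 2 and its highest HFD_siNampt replicate 1, the same libraries that bound Insig1.

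The knockdown in ND, in HFD and its difference between them were tested in a model of the 6 group means. In ND 0 of 9 members and 0% of all genes passed in edgeR (0 members and 1230 genes at an unadjusted p of 0.05). In HFD it was 0 of 9 and 0% (0 members and 630 genes). For the difference between HFD and ND it was also 0 of 9 and 0% (0 members and 451 genes). DESeq2 and limma passed 0 of the 9 members in all 3. With 2 libraries a group, the standard errors of that difference ran from 0.18 for Npc2 to 0.53 for Abca1 on the log2 scale.

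Levels were then set against the cholesterol synthesis genes across libraries. The list holds 20 genes of the route from acetyl-CoA to cholesterol, and its mean log2 CPM (counts scaled to library size) was taken in each library. It was highest in HFD_siNT replicate 1 (5.67), HFD_siNampt replicate 1 (5.63) and HFD_C replicate 1 (5.61), and lowest in HFD_siNampt replicate 2 (5.14) and ND_siNT replicate 2 (5.17). The summed TPM of the list had a median of 732.49 in ND and 890.36 in HFD, with ranges of 636.6 to 876.83 and 715.29 to 998.42 that overlapped.

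Insig1 followed this mean closely over the 12 libraries (Pearson r = 0.88, permutation p = 0.0002, adjusted over 9 genes p = 0.0016). Its rank correlation was 0.93 (permutation adjusted p = 0.0006). The permutations ran over all 12 libraries without regard to batch label or to ND and HFD. Shifts that a batch, or ND or HFD, shares therefore enter these p-values. Without the 2 libraries farthest from the median of the list mean, HFD_siNampt replicate 2 and HFD_siNT replicate 1, r was 0.86. It was 0.98 in batch 1 and 0.89 in batch 2, and 0.68 in ND and 0.90 in HFD, with 6 libraries each. An r with the list mean at least as high as that of Insig1 was found for 0.02% of 14714 other genes.

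Srebf2 was the other member to pass, with r = 0.72 (permutation adjusted p = 0.0068) and a rank correlation of 0.84 (permutation adjusted p = 0.0052). Its r was 0.83 without the 2 farthest libraries, 0.55 and 0.72 in batches 1 and 2, and 0.83 and 0.53 in ND and HFD. An r at least as high was found for 1.13% of the other genes. Both remained past the threshold whichever library was left out, at r of 0.86 to 0.91 for Insig1 and 0.66 to 0.79 for Srebf2. On deviations from the 6 group means r was 0.84 for Insig1 and 0.82 for Srebf2, and 0.54 and 0.49 without both HFD_siNampt libraries. In that pair replicate 1 exceeded replicate 2 by 0.49 for the list mean, 1.27 for Insig1 and 1.15 for Srebf2 on the log2 CPM scale. The list mean was higher in batch 1 in 6 of 6 groups, and Insig1 and Srebf2 were each higher there in 5 of 6. Insig1 went the other way in ND_siNT (-0.25) and Srebf2 in HFD_siNT (-0.06). With 2 libraries a group these deviations are batch differences, so replicate and batch cannot be told apart there.

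Insig2 had r = 0.52 (permutation adjusted p = 0.242), with 0.12 in batch 1 and 0.93 in batch 2. Leaving out HFD_siNampt replicate 1, where Insig1 was high and Insig2 was 9.21 TPM, gave r = 0.77 (permutation adjusted p = 0.0263). Srebf1 had r = 0.36, Abca1 0.20, Scap 0.14, Npc2 0.06, Stard4 -0.03 and Npc1 -0.08, none past the threshold. For Stard4, a gene also known as an SREBP target, 53.3% of the other genes had an r at least as high.

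**Figure D3:**
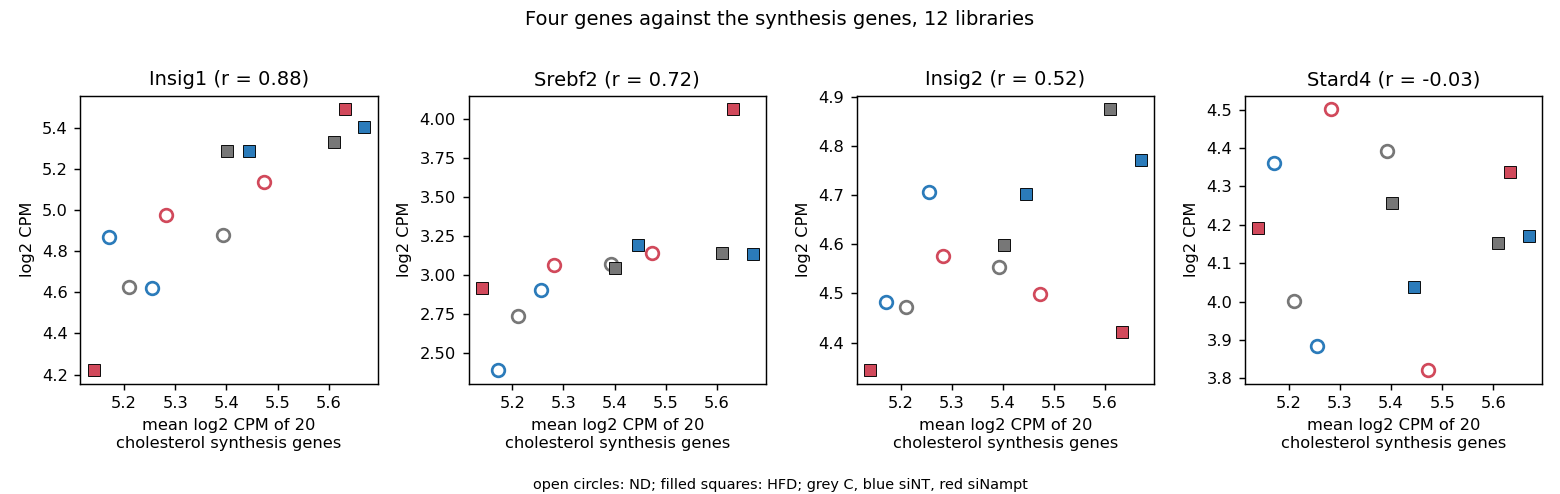
Log2 CPM of Insig1, Srebf2, Insig2 and Stard4 (y axis) against the mean log2 CPM of the 20 cholesterol synthesis genes (x axis), 1 point a library (n = 12; open circles ND, filled squares HFD; grey C, blue siNT, red siNampt). Insig1 (r = 0.88) and Srebf2 (r = 0.72) climb with the list mean across libraries, and HFD_siNampt replicate 2 lies at its low end (5.14).

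Gene by gene, Insig1 had r above 0.5 with 11 of 19 genes of the synthesis list (leaving out the 1 under 5 CPM) and a positive r with 18 of 19. The closest were Msmo1 (0.83), Cyp51 and Fdft1 (0.82 each), and Fdps and Sqle (0.81 each). Srebf2 had r above 0.5 with 10 of 19, led by Lss (0.87) and Mvk (0.85). Stard4 had 1 of 19, Npc1 and Npc2 had 0 of 19. These values describe 12 libraries that share depth and batch, and carry no test.

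Between members themselves, r ranged from -0.24 (Scap with Insig2) to 0.64 (Scap with Stard4) over the 12 libraries. Srebf2 with Insig1 had 0.60, Srebf1 with Srebf2 0.55 and Insig1 with Insig2 0.49. The lysosomal pair Npc1 and Npc2 had 0.34. The genes most like each member were sought among 8474 genes of mean 5 CPM or more. For Srebf2 they were Iffo2 (0.94), Chka (0.89) and Bend3 (0.88), and for Insig1 Ptk2, Ahnak and Esyt2 (0.91 each). Insig2 was most like Zfp456 (0.90), Pnpt1 (0.89) and Idi1 (0.89), the last an isomerase of the mevalonate route. Scap was most like Slc35e3 (0.93), Ppp6r3 (0.90) and Dirc2 (0.88), and Srebf1 most like Nktr (0.81), Arhgap19 (0.80) and Tfe3 (0.79). For Stard4 the 3 were Neo1, Nsl1 and Tarsl2 (0.83, 0.83 and 0.79), and for Npc1 Cmtm6, Mettl2 and Kif13a (0.86, 0.84 and 0.83). For Npc2 they were Cyb5a, Lcorl and Cgrrf1 (0.83, 0.80 and 0.79), and for Abca1 Eif4ebp3, N4bp1 and Smcr8 (0.88, 0.81 and 0.81).

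The wider pathway was followed with 6 lists of 94 genes, none of which had a gene past the threshold in edgeR in any contrast described here. Of 18 genes of SREBP processing and turnover, 10 were higher and 8 lower with siNampt than with siNT (median log2 fold change 0.06, beside 0.03 over all genes). Vcp, an ATPase that extracts proteins from the endoplasmic reticulum, had the smallest p of them (0.32, SE 0.11), then Sar1b of the vesicle coat (-0.20, SE 0.10). The 20 synthesis genes divided into 10 higher and 10 lower (median -0.01), with Mvd at 0.57 (SE 0.19) and Idi1 at -0.57 (SE 0.21). In ND alone 13 were higher and 7 lower with siNampt (median 0.23, beside 0.008 over all genes), with 4 higher at an edgeR unadjusted p of 0.05. In HFD alone 8 were higher and 12 lower (median -0.04, beside 0.04 over all genes), with 2 lower at that p. The difference between HFD and ND was positive for 6 and negative for 14 (median -0.41, beside 0.02), with 2 negative at that p and 0 past the threshold. HFD_siNampt replicate 2 had the lowest list mean of the 12 libraries, and its part in these counts was not tested. Of 13 tested SREBP1 targets in fatty acid synthesis 9 were higher (median 0.04), with the elongase gene Elovl5 at -0.20 (SE 0.14) and the desaturase gene Fads1 at 0.74 (SE 0.50).

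In siNampt minus siNT, 11 of 12 efflux and LXR genes were higher (median 0.41, beside 0.03 over all genes). Among them were the nuclear receptor genes Rxra at 0.56 (SE 0.21) and Nr1h2 at 0.41 (SE 0.15). Of this list, Nr1h3, Abcg1, Abca2, Abca7, Abcg4 and Mylip had mean levels of only 0.14 to 0.36 TPM. Of 13 uptake and lysosome genes, 10 were higher (median 0.22), with Apoe at 0.45 (SE 0.19) and the lipoprotein receptor gene Scarb1 at 0.51 (SE 0.22). Of 16 transfer and storage genes, 10 were higher (median 0.25), with Gramd1a at 1.51 (SE 0.42, mean level only 0.59 TPM) and Stard3 at 0.45 (SE 0.18). The same siNT libraries were low against C: there 11 of the 12 efflux genes (median -0.13) and 12 of the 13 uptake genes (median -0.23) were lower. In that contrast the smallest p-values of the uptake list were those of Scarb1 at -0.37 (SE 0.22) and Apoe at -0.26 (SE 0.19), and of the efflux list Rxrb at -0.34 (SE 0.26) and Mylip at -0.47 (SE 0.50). In the other lists they were those of Vcp at -0.30 and Erlin1 at -0.23, Dhcr7 at -0.27, Lpin1 at -0.74 and Me1 at -0.21, and Osbpl8 at 0.36 and Stard3nl at 0.32. Against C, siNampt had 11 of 12 efflux genes higher (median 0.26) and 8 of 13 uptake genes (median 0.03). These contrasts share arms, so their values stand side by side and do not support each other.

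Between HFD and ND, 17 of the 20 synthesis genes were higher in HFD (median 0.21, beside 0.003 over all genes), with Cyp51 at 0.48 (SE 0.17) and Fdps at 0.30 (SE 0.12). Of 13 fatty acid genes, 11 were higher (median 0.20), among them the desaturase genes Scd2 at 0.50 (SE 0.20) and Scd1 at 0.38 (SE 0.16). Processing genes divided 11 to 7 (median 0.02) and uptake genes 7 to 6 (median 0.03). Stard3nl, of a late endosome sterol carrier family, had the smallest p of the 94 in this contrast (0.60, SE 0.15, edgeR unadjusted p = 0.0011, adjusted p = 1.00). Apoe (-0.33, SE 0.16) and Rnf145 (0.43, SE 0.21) were among the 2 of smallest p in their lists, as were Stard5 (0.33), Apoa1 (0.35) and Abca3 (0.26).

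The tables also give an abundance-weighted transcript length, which moves when a gene's transcripts change share. It was looked at after the levels had been seen, as a description. Insig2 has 4 RefSeq transcripts in the files and Scap 2, and the other 7 members have 1. The Insig2 length was 2520.29, 2530.01, 2528.72 and 2522.93 bases in the 4 siNampt libraries, and from 2477.64 to 2517.62 in the other 8. The siNampt mean was 2525.49 ± 4.64 bases (SD, n = 4), beside 2497.37 ± 14.58 in siNT and 2492.31 ± 10.69 in C. All siNampt values thus lay above all others. Of 1202 genes with several transcripts, at least 5 CPM and a length that varied by at least 1%, 3 had siNampt apart from the other 8 libraries in this way (0.25%). Insig2 is among these 3. How many such genes a random order of the libraries would give was not tested, so the share does not show that the separation is unusual. For Scap, lengths ran from 4138 to 4226 bases, and both ends were HFD_siNampt libraries (replicate 1 at 4138, a value other libraries shared, and replicate 2 at 4226).

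**Figure D4:**
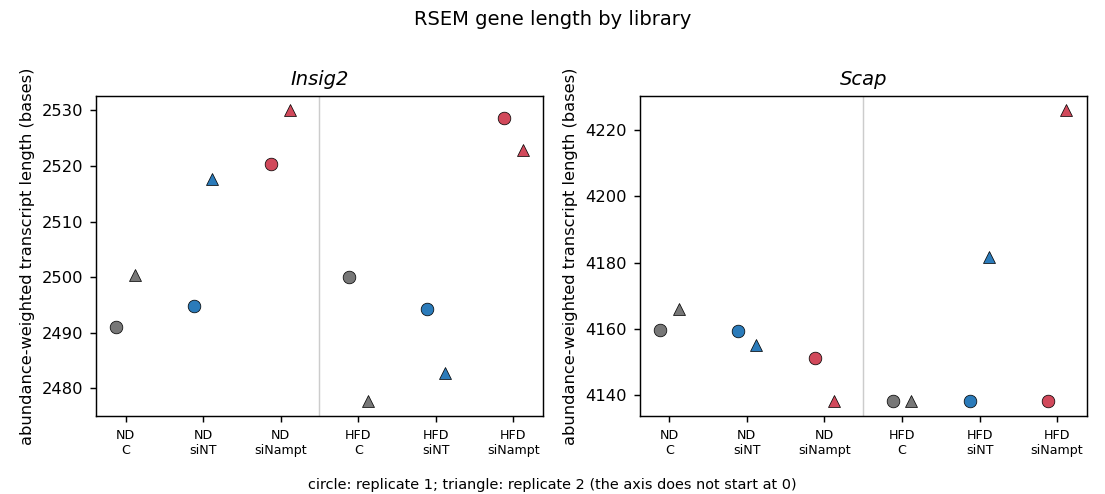
Abundance-weighted transcript length in bases of Insig2 and Scap in the 12 libraries (the axis does not start at 0). The 4 siNampt libraries of Insig2 lie from 2520.29 to 2530.01 bases, above the other 8, while Scap shows no such separation.

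On GRCm38.p6, Srebf1 lies at chr11:60199084-60224186 (minus strand), Srebf2 at chr15:82147269-82205379 (plus), Scap at chr9:110333288-110384949 (plus) and Insig1 at chr5:28071412-28078662 (plus). Insig2 lies at chr1:121304353-121332662 (minus), Npc2 at chr12:84754559-84773112 (minus) and Abca1 at chr4:53030789-53159988 (minus). Npc1 and Stard4 are both on chromosome 18. All 9 are protein-coding genes.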

How the data were processed

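PolyA RNA of 12 pools of 10 ICR blastocysts was sequenced from SMART-Seq v4 PLUS libraries, per the labels' protocols. STAR 2.7.10, RSEM 1.2.28 and mm10 are named in the submitters' processing notes, and further settings are not given in the sources used here. Per the file headers, the deposited values are RSEM expected counts, TPM, FPKM (not used here), and gene length and effective length in bases. Expected counts were rounded to whole numbers. Genes were kept by filterByExpr with a minimum count of 10 (14743 of 24411). The quasi-likelihood test of edgeR 4.0.16 (R 4.3.3) was run two-sided on TMM-scaled counts, with p-values adjusted after Benjamini and Hochberg across these genes and a threshold of 0.05. Each fit used the 12 libraries together, with an additive model for contrasts over ND and HFD or over all treatments, and a model of the 6 group means for the rest. Alternatives used DESeq2 1.42.0, limma 3.58.1 on log2(TPM + 1), RLE size factors, other filters, a block on the batch label, only the libraries compared, and each library left out. The fits were tested on simulated data.

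Correlations with the mean log2 CPM of the 20 synthesis genes had 100000 permutations over libraries. The members and lists were chosen with earlier results of these data known. The genes named from each list are the 2 of smallest p in a contrast, none of which passed, and the likeness genes are the 3 of highest r. Some genes this rule names are not reported here. Libraries of a group carry batch labels equal to their replicate numbers, which pair libraries across groups. Differences of replicate 1 minus 2 correlated across genes between groups by -0.06 to 0.22 (median 0.0917, 15 pairs of groups, 6 over 0.1).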

Additional observations from a re-analysis of the deposited data

Results flagged for a closer look

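Each member's TPM was searched for a library that stood apart from its arm (4 libraries) or from its ND or HFD set (6 libraries) by Dixon's rule, 45 searches in all. The searches overlap, since each library is in an arm and in an ND or HFD set. They gave 6 such values, 1 library value counted in both kinds of set. For independent searches chance gives about 1 in 20, a rate that these 6 cannot be set against. Srebf2 gave 3 of them: 3.82 TPM in HFD_siNampt replicate 1 stood apart both from the siNampt arm (next value 2.02) and from the HFD libraries (next value 2.08), and 1.59 TPM in ND_C replicate 2 lay below the other C libraries (next value 1.90). Abca1 at 1.09 TPM in HFD_siNampt replicate 1 stood apart from the HFD libraries (next value 0.66). Insig2 at 8.68 TPM in ND_siNT replicate 2 lay below the other ND libraries (next value 9.83). Npc1 at 3.97 TPM in ND_siNT replicate 1 lay below the other siNT libraries (next value 5.81). HFD_siNampt replicate 1, which gave 3 of the 6, also had the most genes with a count (17948).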

How the results depend on the processing

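No member passed the test in any of the 8 contrasts under any setting tried, whether DESeq2, limma, other size factors, other filters, the replicate block, only the libraries compared, or any 1 library left out. Insig1 and Srebf2 passed against the synthesis list under every setting that gave a p. The number of members past it ran from 2 to 3 with a library left out, the third being Insig2 without HFD_siNampt replicate 1. With DESeq2, the number of genes past the threshold was 1 for siNampt minus siNT, 2 for siNampt minus C, 2 for siNT minus C, 2 for siNampt minus siNT in HFD, 2 for HFD minus ND and 7 for HFD minus ND in C. With no filter on low counts, the number of genes past the threshold was 119 for siNampt minus siNT, 71 for siNampt minus C, 76 for siNT minus C, 108 for siNampt minus siNT in ND, 68 for siNampt minus siNT in HFD, 40 for the difference of the knockdown between HFD and ND, 99 for HFD minus ND and 80 for HFD minus ND in C. With only the libraries compared in the fit, the number of genes past the threshold was 2 for HFD minus ND in C. The cause of these counts was not tested. Member estimates that changed sign under a setting that keeps all libraries were each smaller than their standard error. The limma fit on log2(TPM + 1) turned the sign to give siNampt minus siNT of 0.052 for Insig1 and 0.087 for Npc2, siNampt minus C of -0.038 for Insig1, siNT minus C of -0.090 for Insig1 and -0.069 for Insig2, siNampt minus siNT in ND of 0.099 for Insig2 and 0.10 for Npc2, siNampt minus siNT in HFD of 0.031 for Npc1 and 0.071 for Npc2, the difference of the knockdown between HFD and ND of -0.064 for Srebf2 and -0.031 for Npc2, HFD minus ND of 0.026 for Npc1 and HFD minus ND in C of -0.014 for Scap. DESeq2 turned it to give siNampt minus C of -0.0095 for Insig1, the difference of the knockdown between HFD and ND of -0.016 for Srebf2 and HFD minus ND in C of 0.0012 for Stard4. RLE size factors also did, giving siNampt minus C of -0.0097 for Insig1, the difference of the knockdown between HFD and ND of -0.016 for Srebf2 and HFD minus ND in C of 0.0013 for Stard4. Leaving out the filter did so too, giving siNampt minus C of -0.0039 for Insig1 and the difference of the knockdown between HFD and ND of -0.031 for Srebf2. With the replicate block, the pairing of libraries by batch label, the turned values were siNampt minus C of -0.017 for Insig1, the difference of the knockdown between HFD and ND of -0.092 for Srebf2 and HFD minus ND of 0.0002 for Npc1. Fitting only the libraries compared gave siNampt minus C of -0.015 for Insig1 and HFD minus ND in C of 0.0002 for Stard4. A filter of at least 5 CPM in 2 libraries gave HFD minus ND in C of -0.010 for Scap. The r with the synthesis list on log2(TPM + 1) was 0.21 for Stard4 and 0.18 for Npc1. The r with the synthesis list on deviations from the 6 group means was -0.021 for Npc2. Without both HFD_siNampt libraries, an alternative chosen after seeing the data, that r was -0.50 for Npc2 and -0.45 for Abca1.

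With each library left out in turn, counts of all genes past the threshold stayed at 0 in 7 contrasts and ran from 0 to 1 for HFD minus ND, the 1 without ND_siNampt replicate 1. The log2 fold changes (or r, where named) below changed sign for at least 1 library left out. The range in HFD minus ND in C was -0.28 to 0.17 for Npc1, -0.14 to 0.15 for Scap, -0.38 to 0.32 for Srebf1 and -0.19 to 0.21 for Stard4. For HFD minus ND, it was -0.26 to 0.078 for Abca1, -0.095 to 0.053 for Npc1, -0.011 to 0.039 for Npc2, -0.15 to 0.048 for Scap and -0.074 to 0.093 for Stard4. In the difference of the knockdown between HFD and ND, the range was -0.50 to 0.74 for Abca1, -0.53 to 0.0088 for Npc1, -0.037 to 0.11 for Npc2, -0.57 to 0.028 for Scap, -0.23 to 0.19 for Srebf1, -0.69 to 0.47 for Srebf2 and -0.20 to 0.48 for Stard4. The range in siNampt minus siNT in HFD was -0.42 to 0.81 for Abca1, -1.13 to 0.15 for Insig1, -0.22 to 0.073 for Npc1, -0.081 to 0.0049 for Npc2, -0.14 to 0.25 for Srebf1 and -0.25 to 0.90 for Srebf2. For siNampt minus siNT in ND, it was -0.14 to 0.26 for Abca1, -0.17 to 0.056 for Insig2, -0.076 to 0.47 for Npc1, -0.15 to 0.00 for Npc2, -0.12 to 0.27 for Srebf1 and -0.32 to 0.36 for Stard4. In siNampt minus siNT, the range was -0.16 to 0.36 for Abca1, -0.15 to 0.25 for Insig1, -0.069 to 0.12 for Npc1, -0.021 to 0.17 for Srebf1 and -0.013 to 0.24 for Stard4. The range in r with the synthesis list was -0.13 to 0.38 for Abca1, -0.28 to 0.11 for Npc1, -0.15 to 0.14 for Npc2 and -0.15 to 0.088 for Stard4. For siNT minus C, it was -0.22 to 0.078 for Abca1, -0.060 to 0.10 for Insig1, -0.0059 to 0.13 for Insig2, -0.17 to 0.15 for Srebf1 and -0.17 to 0.020 for Srebf2. In siNampt minus C, the range was -0.21 to 0.28 for Abca1, -0.13 to 0.26 for Insig1, -0.03 to 0.19 for Scap, -0.093 to 0.23 for Srebf1 and -0.097 to 0.15 for Stard4. In all, 1235 of 1359 fold changes over all settings kept their sign and side of the threshold and 124 changed sign. The settings include leaving out libraries outside a contrast, which enter its fold change only through the shared fit. As 0% of all genes passed in the main fit of any contrast, the side of the threshold had little room to change. Of the r values 115 were kept, 12 changed sign, 7 moved and 1 came past the threshold. Each group holds 2 libraries, each of at least 42473129 counts.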
